A study of Mus musculus with 18 samples.

Results

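The lipopolysaccharide (LPS) receptor complex and its first intracellular adaptors were followed in RNA sequencing of cultured mouse bone marrow cells labelled BMMC, the usual abbreviation for bone marrow-derived mast cells. The set was taken by gene symbol and holds 10 genes of the 45777 in the deposited table: Tlr4, Cd14, Ly96, Myd88, Tirap, Ticam1, Ticam2, Irak1, Irak4 and Traf6. All 10 were found, and all 10 passed the filter on low counts that 17159 genes passed. The question was whether these cells carry transcripts for the parts of the LPS receptor, since the labels name LPS as the treatment and the series title names the IgE receptor.

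The cells were grown in BMMC medium from marrow of the femur and tibia. WT cells carried Sirt6 flox/flox alleles, in which loxP sites flank part of the gene, and KO cells carried the same alleles with LysM-Cre, a Cre recombinase driven by the lysozyme M promoter of myeloid cells. Each genotype had libraries at 0, which carry no treatment label, and at 20 and 60, labelled LPS; the labels give no unit, and these values are called levels here. The 6 groups held 3 libraries each, numbered 4120, 414 and 6110 in every group, 18 libraries in all. The labels do not say that the numbers are separate animals, so the p-values measure the spread between these libraries, which may in part be technical. The labels state no age or sex of the mice and no dose or duration of LPS.

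LPS of Gram-negative bacteria is handed by CD14, a surface protein without a signalling domain, to a complex of TLR4 and MD-2, the protein of Ly96. At the plasma membrane TIRAP brings MYD88 to the receptor, and MYD88 gathers the kinases IRAK4 and IRAK1 and the ubiquitin ligase TRAF6 that lead to NF-kB and MAP kinase activation. From endosomes TRAM, the protein of Ticam2, recruits TRIF, the protein of Ticam1, which leads to IRF3 and type I interferon. Mast cells grown from bone marrow are best known for signalling through the high affinity IgE receptor.

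The libraries held 20026054 to 42265435 counts, and 4.09% to 41.95% of these lay on mitochondrial genes. The mean mitochondrial share was 22.7% ± 14.6 in WT and 13.8% ± 12 in KO at 0 (SD, n = 3). All 15 mast cell markers on the list had a median of at least 1 TPM, a length-scaled share of all transcripts, and their summed TPM lay between 14300 and 63800. Of 16 macrophage markers, 6 had a median of 0 TPM over the 18 libraries (Mrc1, Mertk, C1qa, C1qb, C1qc and Marco). The 16 summed to 53.3 to 276 TPM in WT and 212 to 434 TPM in KO at 0, mostly from Cd68 and Cx3cr1. Of the 10 tested, 5 had positive KO over WT values at 0 and 8 at 60, with median log2 fold changes of 0.21 and 0.70. Only Itgam at 0 had an adjusted p under 0.05, where 0.274% of all genes did. Its log2 fold change was 4.695 (SE 0.896, edgeR adjusted p = 0.033). The 14 neutrophil markers summed to 1.91 to 4.54 TPM in WT and 18.8 to 46.2 TPM in KO at 0, with Elane, Csf3r and Retnlg at a median of 0. Sirt6 itself was at 19.9 ± 7.72 TPM in KO and 14.3 ± 5.01 TPM in WT at 0 (SD, n = 3), with an edgeR log2 fold change of 0.19 (SE 0.219, adjusted p = 0.74). Which exons Cre removes is not stated in the labels, and the count is for the gene as a whole, so Sirt6 checks no genotype label.

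Transcripts of every part of the receptor complex were counted in all 18 libraries. On the length-scaled TPM measure, the abundance averaged over 18 libraries was 51.8 for Irak1, 38.1 for Myd88, 18 for Ly96, 14.2 for Ticam1, 13.4 for Irak4, 9.87 for Tlr4, 7.18 for Traf6, 3.19 for Cd14, 2.29 for Tirap and 0.591 for Ticam2. Most neighbours in this order were not separated by the spread between libraries. In untreated WT cells only 2 of the 9 neighbouring pairs had ranges that did not overlap, Traf6 over Cd14 and Tirap over Ticam2. Tirap was above Ticam2 in 18 of 18 libraries and Myd88 above Ly96 in 18 of 18. Irak1 was above Myd88 in 12 of 18 and Cd14 above Tirap in 8 of 18. Among the 17159 tested genes Irak1 stood at percentile 86.6 of mean TPM, Tlr4 at percentile 58.5, Cd14 at 40.2 and Ticam2 at 19.4.

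**Figure D1:**
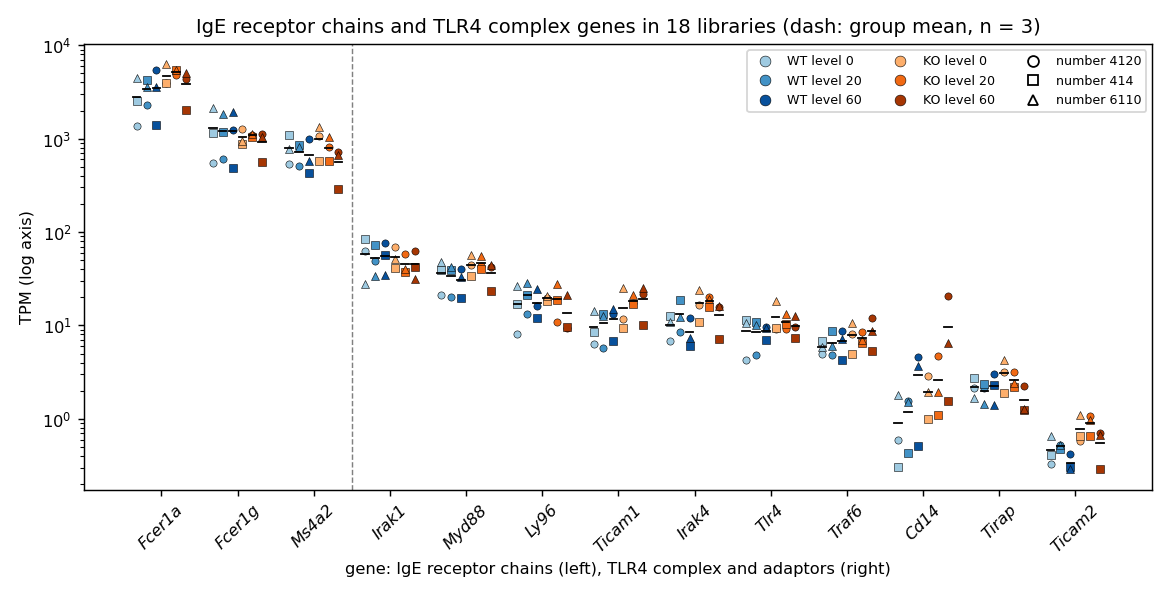
TPM of the 3 IgE receptor chains and the 10 TLR4 complex and adaptor genes in each of 18 libraries on a log axis; colours mark the 6 groups, symbols the library numbers and dashes the group means. The IgE receptor chains lie above all 10 genes, and Cd14 has the widest spread, from 0.308 to 20.8 TPM.

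The ligand-binding parts were present at unequal abundance. Tlr4 was counted 446 to 2747 times per library, Ly96 65 to 348 times and Cd14 8 to 556 times. In untreated WT cells Tlr4 was at 4.24, 11.5 and 10.6 TPM in numbers 4120, 414 and 6110, and in untreated KO cells at 9.19, 9.48 and 18.3 TPM. The lowest Tlr4 value belonged to a WT library and the highest to a KO library, and the groups overlapped. Ly96, whose protein MD-2 forms the LPS pocket, was at 8.06, 16.9 and 26.5 TPM in untreated WT and at 19.6, 18.5 and 20.7 TPM in untreated KO cells. The KO values sat within the WT range. Cd14 was at 0.592, 0.308 and 1.80 TPM in untreated WT and at 2.91, 0.995 and 1.92 TPM in untreated KO cells, again in overlapping ranges.

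The alpha chain of the IgE receptor was far more abundant than the LPS receptor in the same libraries. Fcer1a was at 2780 ± 1570 TPM in untreated WT cells (SD, n = 3), and its TPM was 202 to 564 times that of Tlr4 over the 18 libraries, with a median of 403. Ms4a2 and Fcer1g, the beta and gamma chains, were at 798 ± 277 and 1280 ± 800 TPM (SD, n = 3). Of the 6 genes of the IgE receptor and its nearest kinases (Fcer1a, Ms4a2, Fcer1g, Lyn, Syk and Fyn), 0 were called in any of 9 comparisons by edgeR, in which 0% to 2.54% of all genes were called.

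The adaptors that bind the receptor, Tirap and Ticam2, were the least abundant members beside Cd14, and Myd88 and Irak1 the most abundant. Myd88 was at 36.0 ± 13.6 TPM and Irak1 at 58.1 ± 28.4 TPM in untreated WT cells, while Irak4, the kinase that acts before IRAK1, was at 10.2 ± 3 TPM (SD, n = 3). Tirap, the bridge from TLR4 to MYD88, was at 2.17 ± 0.537 TPM. Ticam1 was at 9.73 ± 4.06 TPM, but Ticam2, the bridge from TLR4 to TRIF, was at 0.464 ± 0.166 TPM and was counted only 15 to 69 times per library. Tirap overlaps the long non-coding RNA gene Gm39318 and Irak1 overlaps 2 microRNA genes in RefSeq. Whether counting used strand is not stated, and reads of these neighbours cannot be told apart from those of Tirap and Irak1.

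In each comparison below, a gene was called when its edgeR quasi-likelihood p, adjusted over all 17159 genes by Benjamini-Hochberg, was under 0.05. Abundance between libraries is given as TMM-scaled CPM, a share of all counts not scaled by gene length. In bulk RNA, fewer cells of a type and less RNA per cell cannot be told apart.

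The first question was whether Sirt6 genotype went with the abundance of the complex. By edgeR, 0 of 10 genes were called between KO and WT at 0, at 20 or at 60, where 0.274%, 0.21% and 0.268% of all genes tested were called. At an unadjusted p under 0.05 the counts were 1, 0 and 1 of the 10, Irak4 both times, beside 12.1%, 7.79% and 10.7% of all genes. DESeq2 also called 0 of the 10. The median log2 fold change of the 10, KO over WT, was 0.24, 0.23 and 0.21 at the 3 levels, beside 0.0062, −0.02 and 0.023 for all genes. Positive values were found for 9 of 10 genes at 0 and for 7 of 10 at 20 and at 60.

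Irak4 was the member whose libraries separated by genotype at all 3 levels. At 0 it was at 15.7, 17.3 and 19.2 CPM in WT (numbers 4120, 414 and 6110) and at 21.3, 22.5 and 28.6 CPM in KO. At 20 the WT libraries were at 18.9, 23.2 and 20.9 CPM and the KO libraries at 26.7, 25.8 and 26.5 CPM. At 60 they were at 16.3, 15.0 and 14.5 CPM in WT and at 21.5, 18.4 and 27.0 CPM in KO. The lowest KO library was thus above the highest WT library at each level. KO was higher in 9 of 9 pairs of the same number and level, as was the case for 7.79% of all genes tested. With either direction counted, 17.4% of all genes tested had KO higher in 9 of 9 or in 0 of 9 pairs. The log2 fold changes were 0.47 (SE 0.169, edgeR adjusted p = 0.31) at 0, 0.33 (SE 0.168, adjusted p = 0.65) at 20 and 0.55 (SE 0.169, adjusted p = 0.28) at 60. Ranges stood apart at these levels for 13.1%, 17.3% and 15.2% of all genes. The share of all genes apart at all 3 levels together was not computed. Same-numbered KO and WT libraries deviated together at 60 but not at 0 or 20, and the same numbers recur at each level. Counts over such pairs are therefore descriptive. Irak4 followed the mitochondrial share inversely, with a Pearson r of −0.73 between log2 CPM and log2 share over the 18 libraries. These libraries also differ in genotype, level and depth. With the mitochondrial share as a covariate the log2 fold changes of Irak4 were 0.36, 0.19 and 0.41.

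Ticam1 was also higher in KO in 9 of 9 pairs, with overlap at 0 and 60. At 20 it was at 12.8, 17.1 and 21.7 CPM in WT and at 23.2, 28.6 and 29.6 CPM in KO, so that the groups did not overlap there. The log2 fold changes were 0.36 (SE 0.328) at 0, 0.66 (SE 0.328) at 20 and 0.59 (SE 0.328) at 60, with edgeR adjusted p = 0.68, 0.63 and 0.53. Without number 4120, 414 or 6110 or any single library, the value at 0 lay between 0.018 and 0.74. Its Pearson r with the mitochondrial share was −0.60 over 18 libraries.

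Neither receptor chain nor Cd14 was called. The KO over WT fold of Tlr4 was 1.22 at 0 (95% interval 0.797 to 1.87), 1.15 at 20 (0.753 to 1.76) and 1.08 at 60 (0.703 to 1.65). Ly96 had a fold of 1 at 0 (0.51 to 1.96), 0.802 at 20 (0.411 to 1.57) and 0.723 at 60 (0.369 to 1.42). Cd14 had log2 fold changes of 0.69 (SE 0.83), 0.72 (SE 0.819) and 1.51 (SE 0.806), with intervals of the fold as wide as 0.873 to 9.34 at 60, and KO was higher in 8 of 9 pairs. These intervals show what the libraries can exclude. They do not show that the genotypes were equal.

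Of the other members, Irak1 was lower in KO in 8 of 9 pairs, with log2 fold changes of −0.38, −0.43 and −0.36 (SE 0.378 each). Its Pearson r with the mitochondrial share was 0.67 over 18 libraries. The mean share was 13.8% ± 12 in KO and 22.7% ± 14.6 in WT at 0 (SD, n = 3). It was 6.35% ± 1.62 and 17.5% ± 14.4 at 20, and 14.5% ± 17.5 and 22.2% ± 17.5 at 60. The part of the share in the Irak1 values was not tested. Ticam2 had log2 fold changes of 0.45 (SE 0.364), 0.53 (SE 0.362) and 0.60 (SE 0.369). At 60 its WT libraries were at 0.687, 0.901 and 0.667 CPM and its KO libraries at 1.12, 0.918 and 1.34 CPM, narrowly apart, on counts of 15 to 55 per library. Myd88 was at log2 fold changes of 0.08, 0.26 and 0.17 (SE 0.228), Traf6 at 0.11, −0.01 and 0.25 (SE 0.155 to 0.156) and Tirap at 0.20, 0.14 and −0.61 (SE 0.301 to 0.303). The neutrophil markers that were higher in KO at 0 were so at 60 as well, at 1.69 to 15.8 TPM in WT and 18 to 68.8 TPM in KO, and their part in these values was not tested.

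**Figure D2:**
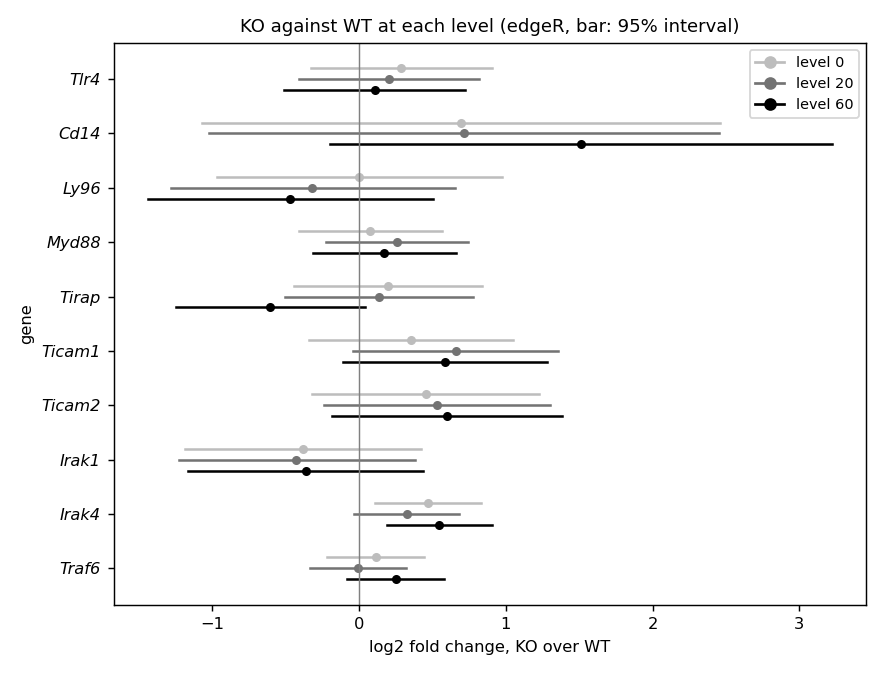
Log2 fold change of KO over WT for the 10 genes at levels 0, 20 and 60, with 95% intervals from the edgeR fit. The estimates of Irak4 lie above 0 at all 3 levels, with intervals that leave out 0 at levels 0 and 60, those of Irak1 lie below 0, and Cd14 has the widest intervals.

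The second question was whether the complex moved at the levels labelled LPS. By edgeR, 0 of 10 genes were called in WT at 20 against 0 (0.6% of all genes called), in WT at 60 against 0 (0.221%), in KO at 20 against 0 (0.449%) or in KO at 60 against 0 (2.54%). At an unadjusted p under 0.05 the counts were 0, 0, 0 and 3, beside 5.77%, 7.94%, 3.23% and 14.2% of all genes. The 3 were Cd14, Tirap and Traf6 in KO at 60. At 20 the log2 fold changes of the 10 genes lay between −0.24 and 0.37 in WT and between −0.28 and 0.39 in KO, with medians of 0.011 and −0.019 beside −0.023 and −0.028 for all genes. At 60 the medians were 0.15 in WT and −0.033 in KO, beside −0.021 and 0.0011.

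Cd14, the LPS-transfer protein, had the largest values. In WT it was at 0.861, 0.269 and 1.88 CPM at 0 (numbers 4120, 414 and 6110), at 2.07, 0.336 and 1.56 CPM at 20 and at 3.75, 0.795 and 4.37 CPM at 60. In KO it was at 2.26, 1.25 and 1.4 CPM at 0, at 3.73, 1.09 and 1.63 CPM at 20 and at 16.8, 2.39 and 6.41 CPM at 60. Every number was higher at 60 than at 0 in both genotypes, as was the case for 10.7% of all genes tested. The WT groups overlapped, and the lowest KO library at 60 only just exceeded the highest at 0.

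The means of Cd14 were 1.00 ± 0.814 and 2.97 ± 1.91 CPM in WT at 0 and 60 and 1.63 ± 0.544 and 8.53 ± 7.43 CPM in KO (SD, n = 3). The log2 fold change at 60 was 1.56 in WT (SE 0.835, edgeR adjusted p = 0.72) and 2.38 in KO (SE 0.833, adjusted p = 0.17). In KO the same-numbered libraries deviated together, and with the number as a block the change was called, at 2.04 (SE 0.485, edgeR adjusted p = 0.021). DESeq2 also called it, at 2.40 (SE 0.8, adjusted p = 0.046), and over all 20 alternatives the adjusted p lay between 0.021 and 0.78. Without the KO library of number 4120 at 60 the value was 1.44 (SE 0.83, adjusted p = 0.52). The response differed between the genotypes by 0.82 (SE 1.15, adjusted p = 1), which is within its error. At 20 the log2 fold changes were 0.37 in WT (SE 0.837) and 0.39 in KO (SE 0.808).

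CD14 is also made by monocytes and neutrophils. The summed TPM of the 16 macrophage markers was 212 to 434 in KO at 0 and 147 to 411 at 60, and that of the 14 neutrophil markers 18.8 to 46.2 and 18 to 68.8. By edgeR, 0 of the 10 tested macrophage markers and 0 of the 10 tested neutrophil markers were called in KO at 60 against 0, where 2.54% of all genes were. The neutrophil markers nevertheless had positive values in 10 of 10 in KO at 60, with a median log2 fold change of 0.77, and in 9 of 10 in WT at 60, with a median of 1.54. The tested macrophage markers had positive values in 6 of 10 in KO at 60, with a median of 0.31. In WT at 60 they did so in 3 of 10, with a median of −0.18. The part of either marker set in the Cd14 values was not tested.

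Tlr4 and Ly96 showed no such pattern. Tlr4 was at 27.4, 44.9 and 52.3 CPM in WT at 0 and at 36.9, 49.4 and 52.4 CPM at 60, and in KO at 33.6, 55.6 and 63.0 CPM at 0 and at 36.9, 52.3 and 60.0 CPM at 60. The groups overlapped, and number 4120 had the lowest Tlr4 in CPM in every group. The fold at 60 against 0 was 1.11 in WT (95% interval 0.727 to 1.7) and 0.981 in KO (0.641 to 1.5). For Ly96 it was 1.14 in WT (0.582 to 2.22) and 0.822 in KO (0.42 to 1.61). Ly96 was higher at 60 in 3 of 3 numbers in WT and in 1 of 3 in KO.

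**Figure D3:**
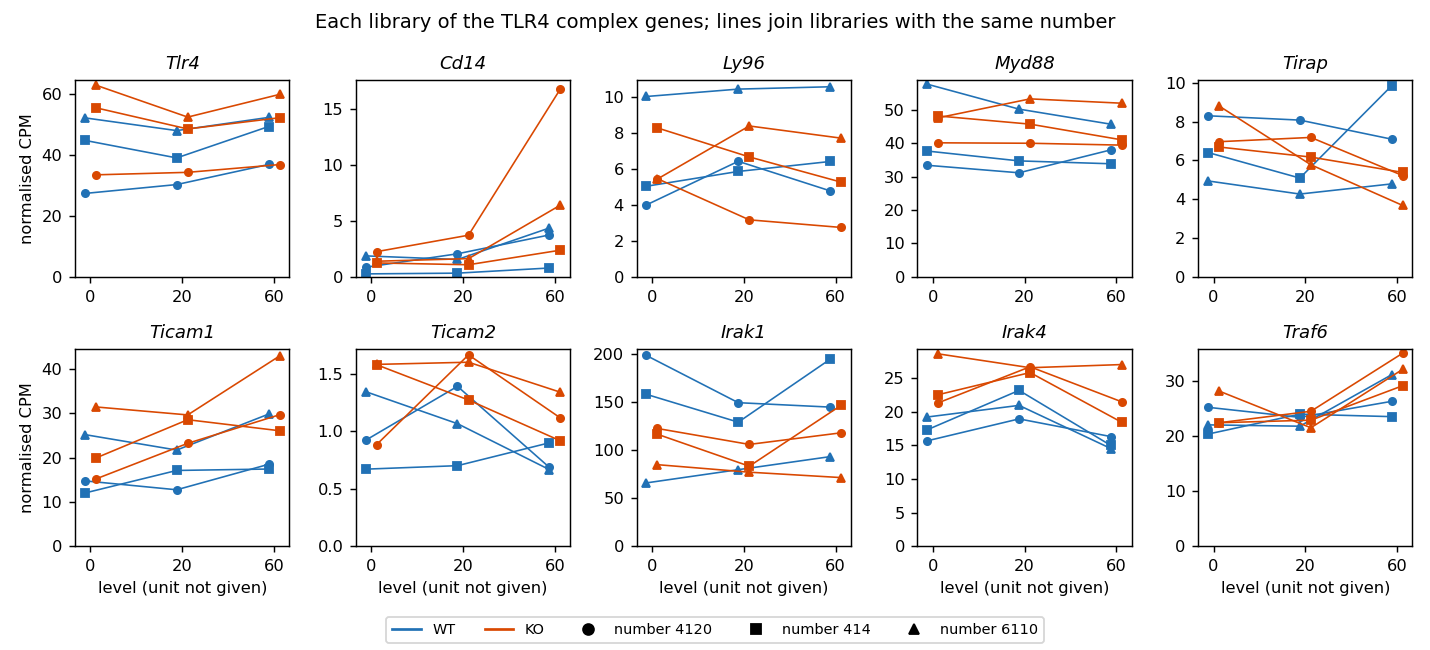
TMM-scaled CPM of each of the 10 genes in every library, on equally spaced levels 0, 20 and 60; colour marks the genotype and the symbol the number, and lines join libraries of the same genotype and number. Cd14 ends highest at 60 in each line, at 16.8 CPM in KO number 4120, and the KO lines of Irak4 lie above the WT lines of the same number.

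Apart from Cd14, the members furthest from 0 in KO at 60 against 0 were Tirap, Ticam1 and Traf6. Traf6 was at 22.4, 22.4 and 28.1 CPM in KO at 0 and at 35.0, 29.1 and 32.0 CPM at 60, without overlap, a log2 fold change of 0.40 (SE 0.155, edgeR adjusted p = 0.23). In WT it was at 25.2, 20.3 and 22.0 CPM at 0 and at 26.2, 23.5 and 31.1 CPM at 60, a log2 fold change of 0.26 (SE 0.156, adjusted p = 0.77). Traf6 was thus higher at 60 in 6 of 6 same-number pairs, beside 10.7% of all genes. Ticam1 was likewise higher in 6 of 6, with log2 fold changes of 0.57 in KO (SE 0.327, adjusted p = 0.49) and 0.34 in WT (SE 0.328, adjusted p = 0.93).

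Tirap went the other way in KO. It was at 6.97, 6.69 and 8.81 CPM in KO at 0 and at 5.22, 5.39 and 3.68 CPM at 60, without overlap, a log2 fold change of −0.66 (SE 0.303, edgeR adjusted p = 0.34). In WT it was at 8.30, 6.41 and 4.95 CPM at 0 and at 7.10, 9.85 and 4.79 CPM at 60, a log2 fold change of 0.15 (SE 0.302). The difference between these responses was −0.80 (SE 0.427, adjusted p = 1). Ranges stood apart for 3 of the 10 genes in KO at 60 against 0, where 19.5% of all genes did so and 2.54% were called. By edgeR, 0 of 10 genes and 0% of all genes were called in the difference between genotypes in the response at 20 or at 60. At an unadjusted p under 0.05 these counts were 0 and 0 of 10, beside 0.396% and 1.1% of all genes. DESeq2 called 0 of 10 at both levels, beside 1 of all genes at 20 and 2 at 60.

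**Figure D4:**
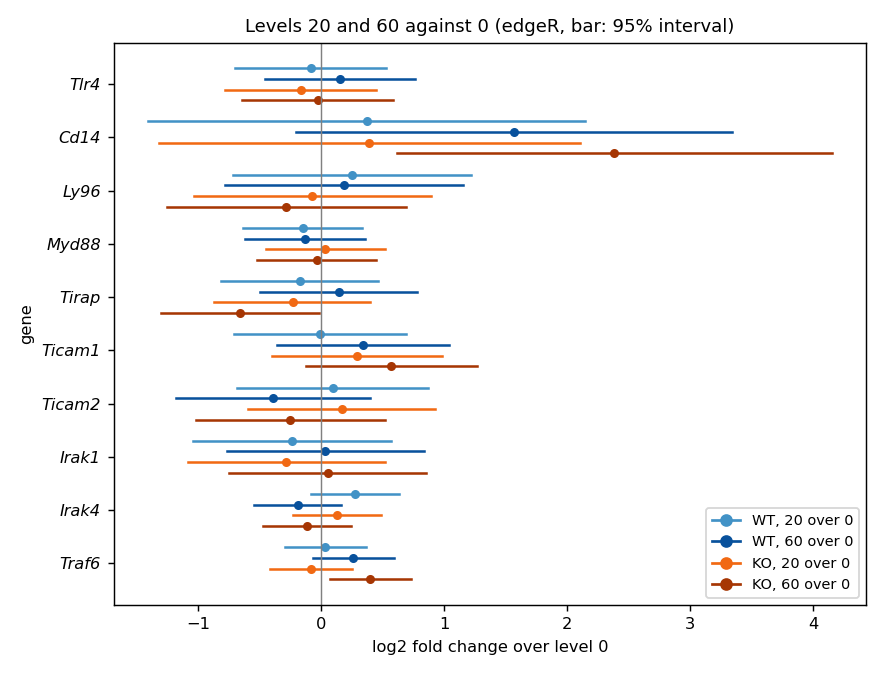
Log2 fold change over level 0 for the 10 genes at 20 and 60 in each genotype, with 95% intervals from the edgeR fit. The intervals of Cd14, Tirap and Traf6 in KO at 60 leave out 0; no adjusted p is under 0.05.

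RefSeq promoter windows, from 250 bases before to 50 after the transcript start in GRCm38.p6, were matched by symbol for 6 of the 10 genes. Those of Traf6 and Ticam1 are shown up to the start site. They were picked after the values were seen, for being higher at 60 in every pair; neither gene was called, and the choice supports nothing. Capitals mark matches on either strand to GGG, 5 bases of any kind and CC, the framework of an NF-kB site; both matches in Traf6 overlap each other. The Traf6 window is chr2:101678170-101678419 on the plus strand and the Ticam1 window chr17:56276768-56277017 on the minus strand, each written 5′ to 3′ along its gene.
Traf6: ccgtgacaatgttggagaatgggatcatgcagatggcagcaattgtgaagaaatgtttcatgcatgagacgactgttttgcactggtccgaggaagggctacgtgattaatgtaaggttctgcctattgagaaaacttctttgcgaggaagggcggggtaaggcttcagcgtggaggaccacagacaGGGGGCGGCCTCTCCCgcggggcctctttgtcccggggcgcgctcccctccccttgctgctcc
Ticam1: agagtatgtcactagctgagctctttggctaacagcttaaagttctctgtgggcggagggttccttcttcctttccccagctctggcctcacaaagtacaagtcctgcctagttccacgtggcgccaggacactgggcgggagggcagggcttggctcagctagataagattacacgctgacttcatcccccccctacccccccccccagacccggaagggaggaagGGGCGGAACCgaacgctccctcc

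This motif is loose. It occurs in the window of 5 of the 6 genes, all but Myd88, and in 50.8% of 32851 mouse windows of the same length. The tighter form GGG, 2 bases of any kind, TTT and CC occurs in 0 of the 6 and in 1.63% of all windows. GAGGAAG on either strand, a core bound by PU.1, occurs in Traf6 and Ticam1 and in 13.6% of all windows. A match describes letters only.

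Genes known to be switched on through each branch were then set beside the complex. These lists were chosen with earlier results of these data known, so counts of called genes in them are no independent support. Of 22 early targets that need MYD88 or NF-kB, 21 passed the filter, and 11 rose in WT and 12 in KO at 20 against 0, where 0.6% and 0.449% of all genes were called, with medians of 3.49 and 3.65 (log2). At 60, 2 rose in WT and 13 in KO, where 0.221% and 2.54% of all genes were called, with medians of 1.06 and 1.75. By edgeR, 0 fell in any of these comparisons, and 0 were called in the difference between the genotypes' responses at 60. Without number 4120, 5 rose in WT and 5 in KO at 20, and 0 in WT and 1 in KO at 60. In WT at 60 the count was also 0 on the TPM scales, with the compared groups alone, without number 414, and without the WT library of 414 at 0 or of 6110 at 60. It was 5 with the number as a block and 9 with DESeq2. Tnf, the cytokine, was at 6.36 ± 3.75 TPM in WT at 0 and 796 ± 496 TPM at 20 (SD, n = 3), a log2 fold change of 6.79 (SE 0.684, edgeR adjusted p = 4.2e-05). Ptgs2, which makes prostaglandin precursors, rose by 6.27 in WT and 6.39 in KO at 20 (log2). These targets are shared with the IgE receptor pathway, and which receptor the responses came through was not tested.

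Of 21 genes that need TRIF and IRF3, 14 passed the filter, and 0 rose in either genotype at 20 or 60 by edgeR, where 0.6% (WT at 20), 0.221% (WT at 60), 0.449% (KO at 20) and 2.54% (KO at 60) of all genes were called. Usp18, which restrains interferon signalling, fell in KO at 60 by 1.21 on the log2 scale (SE 0.293, edgeR adjusted p = 0.036), 1 of 14 beside the 2.54%. The list kept a lower call in 8 of 20 alternatives. It lost the call without number 4120, 414 or 6110. The call was also lost without the KO library of 4120 or 414 at 0, and without that of 4120 or 6110 at 60. The same held with library size alone, with all genes with a count, on the TPM scales and with the compared groups alone. Medians of the list were 0.23 in WT and 0.042 in KO at 20. The labels give no duration, so whether the genes of this list had time to rise is not known. Ifnb1, the first interferon made downstream of TRIF, had 3 counts in 18 libraries together. Isg15 was at 11.1 ± 6.75 TPM in KO at 0 and 28.4 ± 14.9 TPM at 60 (SD, n = 3), a log2 fold change of 1.56 (SE 0.596, adjusted p = 0.22). With the number as a block, 1 gene of this list, Gbp3, rose in KO at 60, by 1.46.

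**Figure D5:**
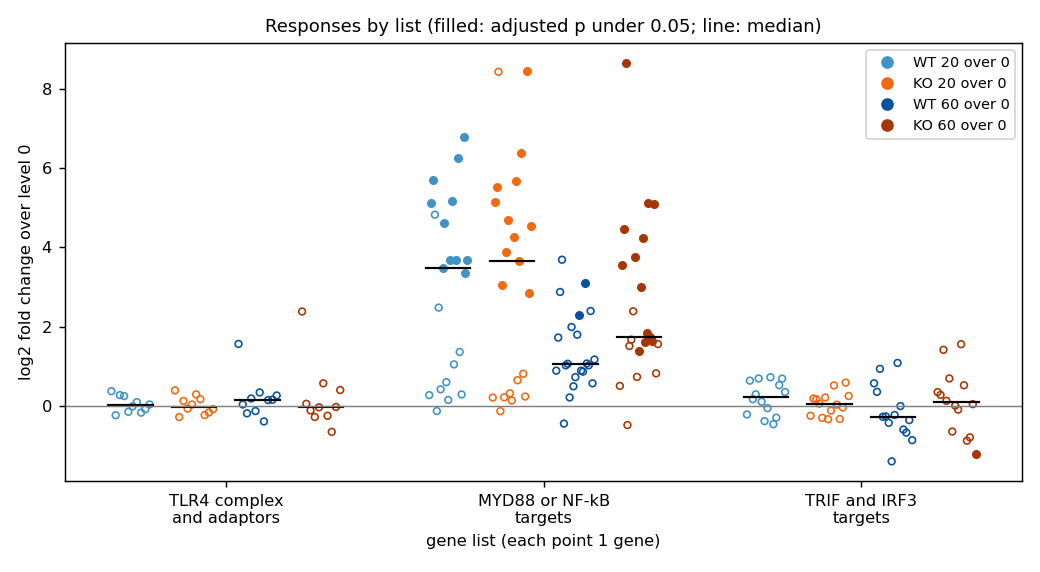
Log2 fold change over level 0 of each tested gene of 3 lists, the 10 TLR4 complex genes, 21 MYD88 or NF-kB targets and 14 TRIF and IRF3 targets; filled points were called and lines are medians. The target genes of MYD88 or NF-kB reach medians of 3.49 and 3.65 at 20, while the medians of the complex are 0.011 and −0.019.

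Across the 18 libraries the members did not move as one. The most alike pairs on log2 CPM were Tlr4 with Myd88 (Pearson r 0.74), Cd14 with Traf6 (0.73) and Myd88 with Ticam1 (0.72). The most opposed were Myd88 with Irak1 (−0.90) and Ticam1 with Irak1 (−0.74). The libraries differ in number, genotype and level. They also differ in mitochondrial share, whose Pearson r was 0.67 with Irak1, −0.46 with Myd88, −0.60 with Ticam1 and −0.38 with Cd14, and its part in these correlations was not tested. Among the 10089 genes that averaged 5 CPM or more, those most like Tlr4 were Steap3 (r 0.95), Fblim1 (0.95) and Ctnnbip1 (0.93), those most like Cd14 were Lrrc59, Hspa2 and Rnf34 (0.91 each), and those most like Ly96 were Rps6ka1 (0.90), Btd (0.89) and Mospd3 (0.87). The median r over the same genes was 0.058 with Tlr4, 0.065 with Cd14 and 0.025 with Ly96.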

How the data were processed

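The deposited table gives gene counts, FPKM and TPM per library, in counts, FPKM and TPM as the authors computed them; per the submitters' processing notes the tools were bcl2fastq 2.20.0, FastQC 0.11.7, HISAT2 2.1.0 and StringTie 2.1.3b, with build mm10, and the strandedness of counting is not given in the sources used here. Counts were tested with edgeR 4.0.16 (quasi-likelihood, TMM scaling, filterByExpr, 1 mean per group over 18 libraries), adjusted over 17159 genes; total counts ran from 20026054 to 42265435. TPM gave abundances between genes. DESeq2, limma on log2(TPM + 0.1) and log2(TPM + 1), other scalings and filters, a number block, a mitochondrial covariate and each library or number left out were alternatives. The fit was also run on simulated counts, drawn independently for each library. That run cannot show how the fit does where same-numbered libraries deviate together. Same-numbered libraries deviated together in 4 of 7 comparisons (every r over 0.1): KO against WT at 60, WT at 20, KO at 20 and KO at 60, the last with r from 0.33 to 0.67. All 10 members were named in every comparison; for other lists up to 4 genes, called genes first and then the most abundant; likeness names were the 3 highest r. Ifnb1, Gbp3, Irf5, the marker genes and the Toll-like receptors and their partners were named outside this rule, after their values were seen. The members and lists were chosen with earlier results of these data known.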

Additional observations from a re-analysis of the deposited data

How the results depend on the processing

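The 90 fold changes of the 10 genes in 9 comparisons were each recomputed under 20 or 26 alternatives, 1920 values in all, of which 2 were called, both for Cd14 in KO at 60. The number of members called there was 1 with DESeq2 and 1 with the replicate block, which changed no other call of a member. Those that kept their sign in every alternative include Irak4, Ticam1, Irak1, Cd14 and Ticam2 (KO over WT at all 3 levels) and Cd14, Traf6 and Ticam1 (60 over 0 in both genotypes). Some of these came close to 0. For KO over WT, Irak1 at 0 reached −0.00365, Ticam1 at 0 reached 0.0181 and Cd14 at 20 reached 0.0635. The alternatives reuse the same libraries, so a kept sign is no independent support. KO over WT, Ly96 at 0 was −0.016 with DESeq2, −0.016 with RLE scaling, −0.0077 with the 1 CPM filter and −0.00398 with the mitochondrial covariate. Traf6 at 20 was 0.16 with library size alone, 0.018 without mitochondrial genes, 0.0104 with all genes, 0.201 with TPM + 0.1 and 0.17 with TPM + 1. With each library or number left out, the values ran from −0.36 to 0.60 for Ly96 (KO over WT at 0), from −0.064 to 0.36 for Myd88 (KO over WT at 0), from −0.10 to 0.45 for Tirap (KO over WT at 0), from −0.0197 to 0.258 for Traf6 (KO over WT at 0), from −0.62 to 0.0029 for Ly96 (KO over WT at 20), from −0.024 to 0.47 for Tirap (KO over WT at 20). They ran from −0.051 to 0.042 for Traf6 (KO over WT at 20), from −0.052 to 0.28 for Tlr4 (KO over WT at 60), from −0.19 to 1.28 for Cd14 (WT 20 over 0), from −0.12 to 0.37 for Tirap (WT 60 over 0), from −0.26 to 0.71 for Cd14 (KO 20 over 0) and from −0.13 to 1.28 for Cd14 (difference in response at 60). The number of members called in KO at 60 was then 0 throughout. Cd14 in KO at 60 lay between 1.44 and 2.83. Scaling by library size alone moved the median of all genes by 0.16 in KO over WT at 0, by 0.16 at 20, by −0.22 in KO at 60 and by −0.14 in the difference at 60, and TPM moved it by up to 0.26, so fold changes on those scales are relative to that shift. The number of all genes called depended on the setting: 19 to 251 in KO over WT at 0, 18 to 119 at 20, 15 to 226 at 60, 22 to 200 in WT at 20, 0 to 258 in WT at 60, 23 to 138 in KO at 20, 20 to 1094 in KO at 60, and up to 1 and 2 in the differences, against 47, 36, 46, 103, 38, 77, 436, 0 and 0. The lowest count in KO at 60 came without number 4120 and the highest with the block; the cause was not tested. Cd14 and Ticam2 rest on 8 to 556 and 15 to 69 counts per library, which limits their precision, and 3 libraries against 3 cannot give an exact two-sided p under 0.1.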

Other observations

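Receptors that neighbour TLR4 were unequal in these cells. Il1rl1, the IL-33 receptor that also signals through MYD88, was at 900 ± 295 TPM in untreated WT cells (SD, n = 3), and 0 of the 5 receptors of the IL-1 family on the list were called in any of 9 comparisons by edgeR, in which 0% to 2.54% of all genes were called. Of the other Toll-like receptors, Tlr6, a partner of TLR2 for lipopeptides, was at 2.52 to 17.4 TPM over the 18 libraries, while Tlr3, Tlr5, Tlr7, Tlr8, Tlr9 and Tlr11 had a median of 0 TPM. Cd180, a TLR4-like surface protein, was at 4.1 to 35.3 TPM, but Ly86, its partner and a relative of MD-2, had 7 counts in 18 libraries. Lbp, the serum protein that carries LPS to CD14, had 8 counts. Tlr2 was at 0.506 ± 0.119 TPM in KO and 1.97 ± 0.347 TPM in WT at 0 (SD, n = 3). Its log2 fold change was −2.09 at 0 (SE 0.462, edgeR adjusted p = 0.082). At 20 it was −2.33 (SE 0.47, adjusted p = 0.058) and at 60 −1.07 (SE 0.453, adjusted p = 0.41). Under the alternatives, the list of other Toll-like receptors and their chaperones had at most 1 lower call in KO over WT at 0 and at 20, and 0 at 60. It also had at most 1 lower call in KO at 60 against 0. Tlr6 had a log2 fold change of −1.31 there (SE 0.339, edgeR adjusted p = 0.054) and of −0.75 in WT at 60 against 0 (SE 0.336, adjusted p = 0.6).

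Of 12 inhibitors of TLR4 signalling, 1 rose in WT and 1 in KO at 20, where 0.6% and 0.449% of all genes were called. It was Tnfaip3 both times, by 3.34 (SE 0.577, edgeR adjusted p = 0.009) and 2.84 (SE 0.564, adjusted p = 0.031) on the log2 scale. Tollip, which restrains IRAK1, rose in KO at 60 by 1.14 (SE 0.244, adjusted p = 0.018) beside 2.54% of all genes called, and was at 0.67 (SE 0.242, adjusted p = 0.41) in WT. Over 20 alternatives each, the list kept a call in 12 (WT at 20), 9 (KO at 20) and 9 (KO at 60). All 3 were lost without number 4120 or 414, without the library of 4120 or 414 at 0, on the TPM scales and with the compared groups alone. Those in KO were also lost with library size alone, and that in KO at 60 with all genes with a count. Those at 20 were also lost without the library of 6110 at 0, that in KO at 20 without the KO library of 4120 or 414 at 20, and that in KO at 60 without the KO library of 4120 or 6110 at 60. Of 19 signalling steps after TRAF6 and TRIF, 0 were called in any of the 9 comparisons by edgeR, in which 0% to 2.54% of all genes were called, and with the number as a block Irf5 was called in WT and KO at 60, at 1.03 and 0.86.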
